A study of Mus musculus with 2 samples.

Results

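The genes described here are 37 regulators of apoptosis and necroptosis, chosen as a list of gene symbols and compared between colon macrophages of DSS-treated and control mice. A probe set of the array belonged to the list when its annotated symbol, or 1 of several symbols, was on the list. This gave 36 probe sets. Of the 37 genes, 30 had a probe set of their own, Bcl2a1a, Bcl2a1b and Bcl2a1d were read together by 3 shared probe sets, and Bax, Ripk1, Ripk2 and Trp53 were not analysed here. The 33 genes with a value make 31 separate units of the 20736 on the array, where a unit is a gene with its own probe set or a set of genes that share one. The Bcl2a1 genes count as 1 unit.

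Macrophages of the mouse colonic lamina propria were compared after 5 days of drinking water (control, 1 array) or of 3% dextran sulfate sodium in the water (DSS, 1 array). DSS is a polymer that damages the colon epithelium and is used to induce colitis. The labels give no genotype, strain, age or number of mice for either array. Both arrays held total RNA of cells sorted for CD45, IAb, CD11b and F4/80 and against CD103. With 1 array in each group there is no replicate error and no test, every difference below is between these 2 arrays, and treatment and array cannot be told apart. A difference is the log2 signal on the DSS array minus that on the control array, so 1 is 2-fold. Counts and medians use units whose signal reached the array's median (5.70 for control and 5.62 for DSS, log2) on 1 or both arrays, a signal rule that 11564 units passed. Differences from several probe sets of 1 gene had a pooled SD of 0.28 (641 genes), which serves as a yardstick of probe noise only.

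The sort antigens matched the label, and markers of other blood cells differed between the arrays. Ptprc (CD45), H2-Ab1 (IAb), Itgam (CD11b) and Adgre1 (F4/80) were above the median on both arrays, with differences of 0.40, 0.14, 0.60 and -0.82, and Itgae (CD103) was under it on both. Of 16 neutrophil markers, 14 were at least 2-fold higher in DSS and their summed signal was 11.08 in control and 15.10 in DSS (log2). Mmp8 and Lcn2 led at 6.65 and 6.01. In control, 10 of the 16 were under the array's median, Mmp8 and Lcn2 among them, so their differences start from signals that cannot be told from background, and only Elane was under the median on both arrays. Of 9 units of monocyte markers 8 were at least 2-fold higher, led by Chil3 at 5.90, which was dim in control (5.62, under the median), and Hp at 4.76. The ninth, F13a1, was 3.68-fold lower, and the summed signals were 12.23 and 14.28. All 14 resident macrophage markers had negative differences, led by Vsig4 at -5.29 and Folr2 at -3.62, which were dim in DSS (4.82, under the median, and 5.71, just above it), with summed signals of 14.99 and 13.94. Summed signals of the epithelial, T and NK cell, B and plasma cell, dendritic and stromal markers were 10.05, 10.25, 11.11, 10.09 and 10.53 in control and 10.45, 9.19, 10.87, 9.96 and 10.45 in DSS. Among those markers past the signal rule, the largest epithelial differences were 1.40 for Fabp2 and 0.83 for Car1. Those of T and NK cell markers were -2.85 for Cd28, under the median in DSS (5.45), and 1.68 for Gzma, under it in control (4.69). Those of B and plasma cell markers were -1.17 for Tnfrsf17, under the median in DSS (5.28), and 0.49 for Mzb1. Dendritic markers had -1.44 for Siglech and 0.95 for Ccr7, and stromal markers 0.85 for Pecam1 and 0.59 for Cdh5. Of 6 stromal markers past the rule, 3 were above 0 and 3 below, with Dcn lowest at -0.58. More cells of a type and more RNA per cell cannot be told apart in such a sample, and the part of these cell types in the differences below was not tested.

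Apoptosis through mitochondria is set by the BCL-2 family. Guardian proteins hold back the pore formers of the mitochondrial outer membrane, and BH3-only proteins, made or activated under stress, oppose the guardians. Once pores form, cytochrome c and APAF1 activate caspase-9, which activates executioner caspases, while inhibitor of apoptosis proteins (IAPs) restrain caspases. Death receptors such as the TNF receptor instead build a complex of FADD, TRADD, caspase-8 and its inhibitor cFLIP. Where caspase-8 is inactive, RIPK3 can phosphorylate MLKL, which ruptures the plasma membrane in necroptosis, a lytic and inflammatory form of death. Neutrophils, which are short-lived, depend on MCL1 for survival. For the comparison of the opposing classes, the guardians, Cflar and the IAPs were counted as pro-survival (9 units), and the pore formers, BH3-only genes, apoptosome and caspase genes, Fadd, Ripk3, Mlkl and Cyld as pro-death (20 units). Tradd and Bcl2l14 have mixed or less settled roles and were counted in neither class.

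Promoter sequences are given for some of the members, from RefSeq (build GRCm38.p6). Windows of 250 bases before to 50 bases after the start were held there for 30 of the 33 genes with a value. The first set holds Mlkl (chr8:111338156-111338455, minus strand) and Birc2 (chr9:7837008-7837307, minus strand), the members that differed by over 2-fold, and Birc3 (chr9:7873121-7873420, minus strand), the next protein-coding gene to Birc2, whose signal was similar on both arrays. Capitals mark letters of the NF-kB type, GGGNNTTCC or the same letters with 1 more T, on either strand.
Mlkl: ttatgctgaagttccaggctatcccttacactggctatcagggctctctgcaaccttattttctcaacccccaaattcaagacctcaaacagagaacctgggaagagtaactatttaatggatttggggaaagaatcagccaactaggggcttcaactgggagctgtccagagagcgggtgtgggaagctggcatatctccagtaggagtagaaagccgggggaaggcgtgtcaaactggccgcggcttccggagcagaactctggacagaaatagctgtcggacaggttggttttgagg
Birc2: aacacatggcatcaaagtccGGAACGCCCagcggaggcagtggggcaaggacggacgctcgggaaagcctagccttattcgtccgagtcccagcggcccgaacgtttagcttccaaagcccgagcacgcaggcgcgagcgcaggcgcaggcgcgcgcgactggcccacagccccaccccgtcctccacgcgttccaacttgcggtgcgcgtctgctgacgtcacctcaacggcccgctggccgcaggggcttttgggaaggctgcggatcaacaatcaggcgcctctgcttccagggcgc
Birc3: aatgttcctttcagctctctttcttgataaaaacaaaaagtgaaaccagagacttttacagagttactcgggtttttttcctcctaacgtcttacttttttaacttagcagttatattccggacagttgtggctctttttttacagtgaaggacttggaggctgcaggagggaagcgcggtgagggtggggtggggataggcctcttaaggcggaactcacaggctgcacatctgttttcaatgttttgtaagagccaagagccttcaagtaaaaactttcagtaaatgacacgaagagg
The Birc2 window had a match on the other strand, GGAACGCCC, with its first base at -230 from the start, and neither the windows of Mlkl and Birc3 nor the other Birc2 window, not shown, had one. Over all members 5 of 42 windows (11.9%) held either form, those of Bbc3, Bcl2l1, Birc2, Cyld and Mcl1, beside 7.0% of all 32851 windows of the table. The matches of both forms in the Bbc3 window overlap. A match is a description of letters and shows no binding.

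The second set shows how alike the Bcl2a1 genes are around their starts. They have 1 value because each of their probe sets is annotated with all 3 and also with Bcl2a1c, and the promoter windows do not bear on the probes. The stretches of 150 bases lie at chr9:88956819-88956968 (plus strand) for Bcl2a1a, chr9:89199128-89199277 (plus strand) for Bcl2a1b and chr9:88731802-88731951 (minus strand) for Bcl2a1d. Capitals mark the 3 positions that differ among them.
Bcl2a1a: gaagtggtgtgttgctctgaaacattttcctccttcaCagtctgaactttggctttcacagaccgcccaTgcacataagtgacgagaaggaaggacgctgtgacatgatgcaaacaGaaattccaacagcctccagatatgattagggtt
Bcl2a1b: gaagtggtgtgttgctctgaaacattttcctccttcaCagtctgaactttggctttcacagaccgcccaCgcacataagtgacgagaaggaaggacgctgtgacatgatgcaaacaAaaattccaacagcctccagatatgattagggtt
Bcl2a1d: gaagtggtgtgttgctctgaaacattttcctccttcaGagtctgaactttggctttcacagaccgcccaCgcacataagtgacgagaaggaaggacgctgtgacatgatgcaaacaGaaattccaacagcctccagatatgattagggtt
Bcl2a1b and Bcl2a1d each shared 148 of the 150 bases with Bcl2a1a.

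Few of the regulators differed strongly, and the differences that stood out were higher in DSS. Of the 29 units past the signal rule, 2 reached a 2-fold higher signal in DSS, Mlkl and Birc2 (6.90%, against a background of 4.06% of all units), and 0 reached a 2-fold lower one (background 2.99%). At a size of 1.5-fold, 6 were higher (20.7%, background 9.89%) and 0 lower (background 8.66%). The 6 were Mlkl, Birc2, Casp6, Bcl2l11, Cyld and Bak1. Of these, 5 were pro-death (27.8% of 18 units) and 1, Birc2, was pro-survival (11.1% of 9 units). Of the 29, 18 had a difference above 0 (62.1%, background 46.8%), with a median of 0.12 beside -0.03 over all units. The count above 0 was 22 after median centring, with the median of all units at 0.08, and 18 after loess centring, with that median at -0.01. The share of all units above 0 is not given under these scalings, so these counts cannot be read against 46.8%. The lowest difference was -0.44 for Bbc3 and the highest 1.77 for Mlkl. The members were chosen with earlier results of these data known, so their shares beside the background are description only.

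**Figure D1:**
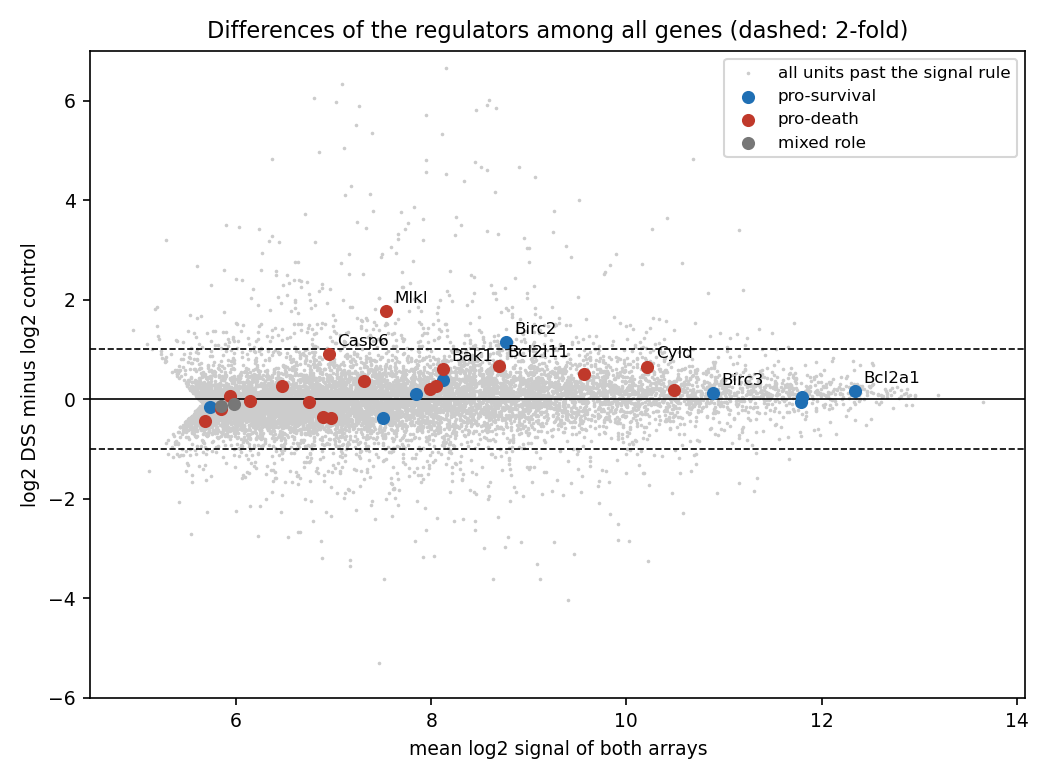
Difference between the DSS and the control array (log2, vertical axis) against the mean log2 signal of both arrays for 11564 units past the signal rule (grey) and 29 units of the regulators (coloured by class; 1 array per group). Mlkl at 1.77 and Birc2 at 1.14 lie above the dashed line at 2-fold, and no regulator lies below the lower one.

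The differences of pro-survival and pro-death genes overlapped. The 9 pro-survival units had a median difference of 0.11 and the 18 pro-death units past the signal rule one of 0.23. In both classes 66.7% of units were higher in DSS (6 of 9 and 12 of 18), beside 46.8% of all units. The pro-survival differences, from -0.37 to 1.14, lay wholly inside the range of the pro-death ones, from -0.44 to 1.77. After loess centring, which removes a trend of the difference with signal, the pro-survival median was -0.02 with 3 of 9 above 0. The pro-death median was then 0.21 with 14 of 18 above 0, and the median of all units -0.01. After median centring the counts above 0 were 7 of 9 and 14 of 18. The shares were thus equal as deposited and after median centring, but not after loess centring. The share of all units above 0 is not given under either centring. Without Mlkl the pro-death median was 0.20, and without Birc2 the pro-survival median was 0.08, with the other pro-survival units between -0.37 and 0.39.

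**Figure D2:**
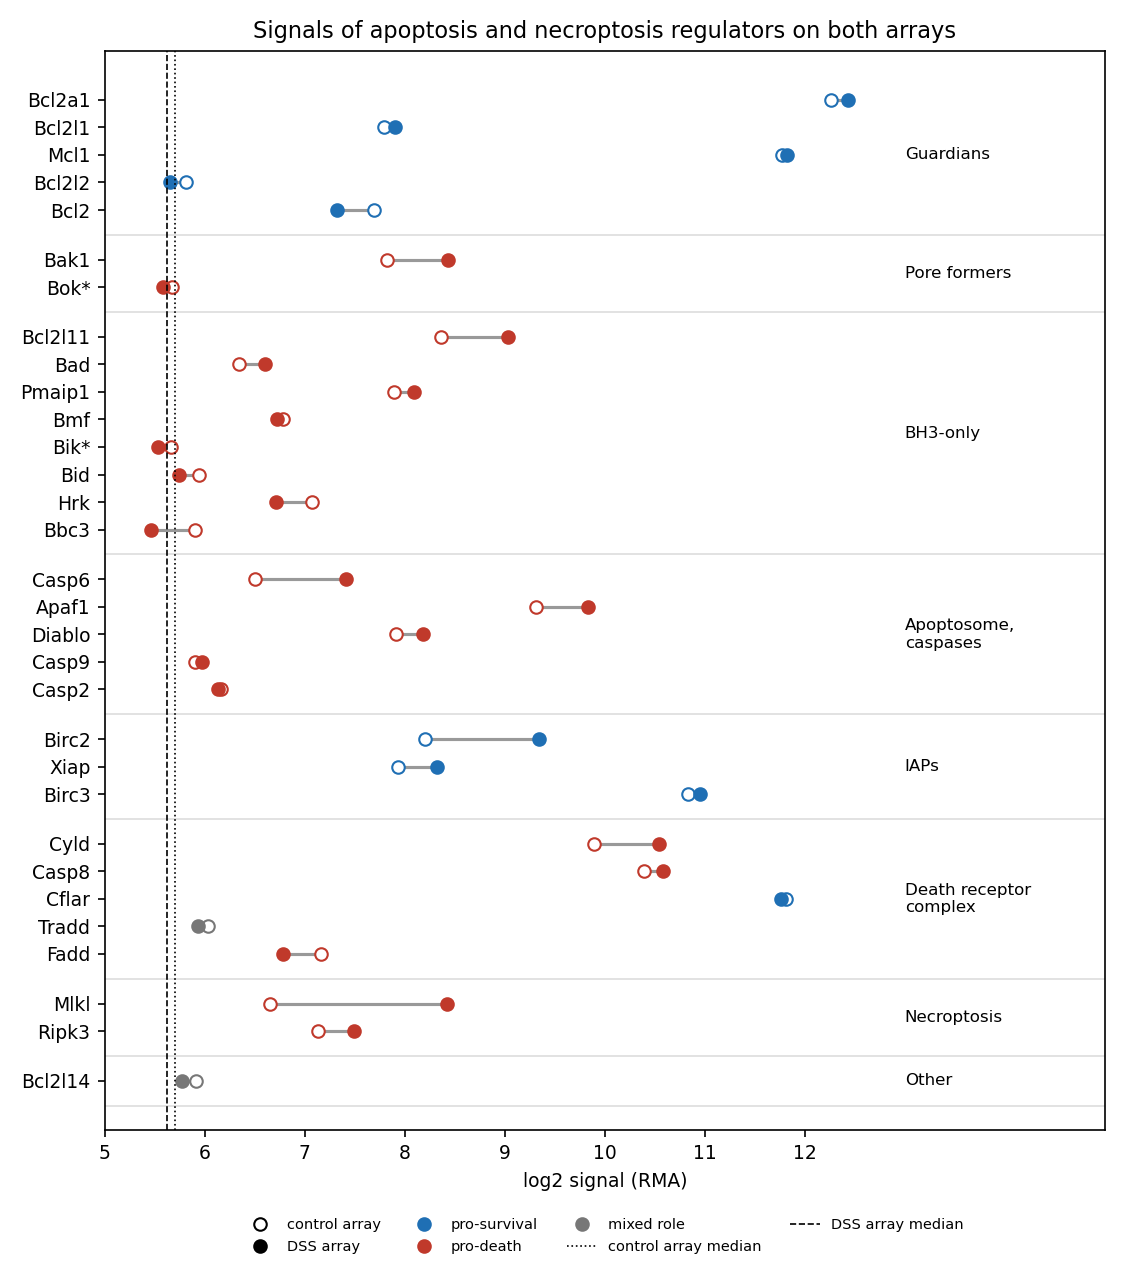
Log2 signal of each regulator on the control array (open circle) and the DSS array (filled circle), grouped by role and coloured by class, with the array medians as vertical lines and a star at the 2 units under both medians. The widest gaps are those of Mlkl, from 6.65 to 8.42, and Birc2, from 8.20 to 9.34, while Mcl1 and Bcl2a1 had differences of 0.05 and 0.16.

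Apart from Bcl2, the BCL-2 guardians had differences under the yardstick of 0.28. Mcl1, which encodes a short-lived protein that neutrophils need, read 11.77 in control and 11.82 in DSS. The Bcl2a1 genes, which encode the NF-kB-inducible guardian A1, read 12.26 and 12.43 on the brightest shared probe set, and 11.80 and 11.96, and 12.02 and 12.18 on the others. All 3 shared probe sets had a difference of 0.16, although they list the same genes and are not independent of each other. Both guardians were bright on both arrays, and the sign of both differences turned after loess centring (-0.12 for Mcl1 and -0.02 for Bcl2a1). Bcl2l1, which encodes BCL-XL, read 7.79 in control and 7.90 in DSS, and Bcl2l2, which encodes BCL-W, 5.81 and 5.65, close to the array medians. Bcl2, the founding member of the family, read 7.69 in control and 7.32 in DSS, and its difference of -0.37 was the lowest of the pro-survival class. On the same arrays the summed signal of the neutrophil markers was 11.08 in control and 15.10 in DSS, with 10 of the 16 under the median in control. A link between these markers and the guardian signals was not tested.

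Of the pore formers, Bak1 was 1.52-fold higher in DSS. BAK sits in the mitochondrial outer membrane and opens it once freed from the guardians. Bak1 read 7.82 in control and 8.43 in DSS. Bok, a related family member, read 5.67 and 5.58, under the median of both arrays, so it did not enter the counts.

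The BH3-only genes were split in direction. Bcl2l11, which encodes BIM, a potent activator of death in blood cells, read 8.36 in control and 9.03 in DSS, a 1.59-fold higher signal. Pmaip1 (NOXA), which binds MCL1, read 7.89 and 8.09, and Bad, which binds BCL-2 and BCL-XL, read 6.34 and 6.60, both differences under the yardstick of 0.28. On the other side, Bbc3 (PUMA), a p53-inducible member, read 5.90 in control and 5.46 in DSS, the latter under the array's median. Hrk read 7.07 and 6.71, Bid, which caspase-8 cleaves to link death receptors to mitochondria, 5.94 and 5.74, and Bmf 6.78 and 6.72. Bik, at 5.66 and 5.53, was under the median of both arrays. Of the 7 BH3-only genes past the signal rule, Bcl2l11, Bad and Pmaip1 were above 0 and Bid, Hrk and Bbc3 below 0 under every setting tried, and the sign of Bmf turned. Bcl2l11 was the single member of this group past 1.5-fold.

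Downstream of the mitochondria, Casp6 and Apaf1 had the highest differences among the caspase and apoptosome genes. Casp6, which encodes an executioner caspase, read 6.50 in control and 7.41 in DSS, 1.87-fold higher and just short of the 2-fold size. Only 4.88% of all units past the signal rule had a higher difference. Apaf1, the scaffold of the apoptosome, read 9.31 and 9.83, a difference of 0.51 that only 11.9% of units exceeded. Casp9, the initiator caspase that APAF1 recruits, stayed near the array medians at 5.90 and 5.97, and Casp2, another initiator caspase, read 6.16 and 6.13. Diablo, whose protein SMAC is released with cytochrome c and blocks IAPs, read 7.91 and 8.18. The differences of Diablo, Casp9 and Casp2 were under the yardstick of 0.28, and only Casp6 passed 1.5-fold.

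Of the IAP genes, Birc2 and Xiap were higher in DSS under every setting tried, and the sign of Birc3 depended on the scaling. Birc2, which encodes cIAP1, a ubiquitin ligase that keeps RIPK1 in survival signalling, read 8.20 in control and 9.34 in DSS, 2.21-fold higher. Its second probe set, annotated with 1 accession that is not from RefSeq, read 6.75 and 7.60, a difference of 0.85. The mean of both is 0.99, just under 2-fold. Birc3, its neighbour on the chromosome, encodes the related ligase cIAP2 and read 10.83 in control and 10.95 in DSS, a difference of 0.12 that turned to -0.02 after loess centring. Xiap, a direct caspase inhibitor, read 7.93 and 8.32. The differences of the neighbouring genes Birc2 and Birc3, 1.14 and 0.12, lay further apart than the yardstick of 0.28.

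**Figure D3:**
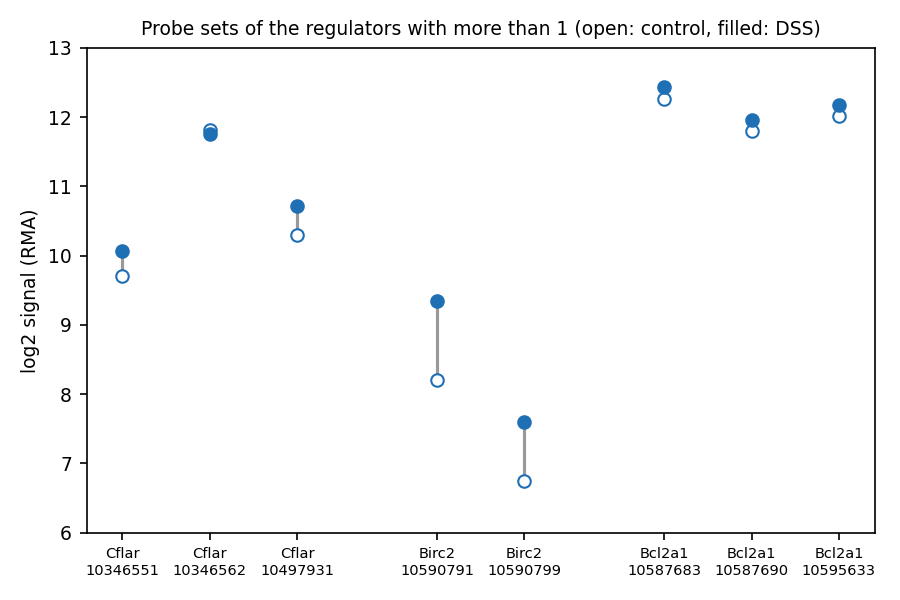
Log2 signal on the control array (open) and the DSS array (filled) of each probe set of Cflar, Birc2 and the Bcl2a1 genes, the regulators with more than 1 probe set. Both Birc2 probe sets were higher in DSS and the 3 Bcl2a1 probe sets differed by 0.16 each, while those of Cflar had differences of 0.36, -0.06 and 0.41.

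In the death receptor complex, Cyld stood apart from the other genes. CYLD removes ubiquitin chains from RIPK1 and so favours the death complex over survival signalling. Cyld read 9.89 in control and 10.54 in DSS, 1.57-fold higher. Casp8, the initiator caspase that also restrains necroptosis, read 10.39 and 10.58, within the yardstick. The adaptor gene Fadd read 7.16 and 6.78, 1.30-fold lower, and the adaptor gene Tradd 6.03 and 5.93. Cflar encodes cFLIP, the inhibitor of caspase-8, and lies next to Casp8 in the genome. Its brightest probe set read 11.81 and 11.76, but the others read 9.71 and 10.07, and 10.30 and 10.71. The Cflar probe sets thus disagreed in sign, their mean difference was 0.24, and no direction is given for this gene. Cyld and Casp8 were above 0 and Fadd was below 0 under every setting tried, whereas the sign of Tradd turned, as that of Cflar did.

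The necroptosis genes included the largest difference of all the regulators. Mlkl, which encodes the pseudokinase that breaks the plasma membrane, read 6.65 in control and 8.42 in DSS, 3.41-fold higher. Both signals were above the array medians, and only 1.44% of units past the signal rule had a higher difference. Its range over the other settings was 1.77 to 1.88. Ripk3, the kinase that activates MLKL, read 7.13 and 7.49, a 1.28-fold higher signal that 18.1% of units exceeded. The genes of this kinase and its substrate thus differed in the same direction but by 0.36 and 1.77. The mixed-role gene Bcl2l14 read 5.91 in control and 5.77 in DSS, close to the array medians.

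Other genes of cell death pathways came from a list of 40, of which 30 passed the signal rule. The list was chosen with earlier results of these data known, so its shares beside the background are description only. Of these, 4 were higher by 2-fold or more (13.3%, background 4.06%) and 0 lower by as much (background 2.99%). At 1.5-fold, 7 were higher (23.3%, background 9.89%) and 2 lower, Htra2 and Gsdme (6.67%, background 8.66%). In all 19 lay above 0 (63.3%, background 46.8%), with a median of 0.14. Zbp1, a nucleic acid sensor that can recruit RIPK3, read 7.92 in control and 10.19 in DSS, 4.82-fold higher. Fas, a death receptor that signals through FADD and caspase-8, read 6.45 and 8.49, 4.11-fold higher. Casp12 was 2.25-fold higher, from a control signal of 4.81 under the array's median, so it passed the rule through the DSS array alone. Gsdmd, the pore protein of pyroptosis, was 2.24-fold higher. The lowest were Htra2, a mitochondrial protease, and Gsdme, a gasdermin that executioner caspases cleave, both at -0.62, then Birc5 (survivin) at -0.52 and Ticam1, the adaptor TRIF, at -0.34. Thus the genes of the death receptor Fas and of its adaptor Fadd differed in opposite directions, at 2.04 and -0.38.

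Targets of p53 lay on both sides of 0. Of 16 genes 11 passed the signal rule and 0 were at least 2-fold apart (background 4.06% higher and 2.99% lower). At 1.5-fold, 1 was higher (9.09%, background 9.89%) and 2 were lower (18.2%, background 8.66%). In all 7 were above 0 (63.6%, background 46.8%), with a median of 0.03 beside -0.03 over all units. This list, too, was chosen with earlier results of these data known. Cdkn1a, the cell cycle inhibitor p21, read 10.77 in control and 11.49 in DSS on a probe set that also lists 4930567H12Rik. Sesn2, Perp and Ccng1 followed at 0.44, 0.23 and 0.09. Sesn2 and Perp were under the array's median in control and passed the rule through the DSS array alone. Sesn1, a stress-induced sestrin, read 9.30 and 8.31, just short of 2-fold lower. Plk2, Btg2 and Aen had differences of -0.62, -0.36 and -0.34, with Aen under the array's median in DSS. Among the regulators, the p53-inducible genes Bbc3 and Pmaip1 lay on opposite sides of 0, at -0.44 and 0.20.

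**Figure D4:**
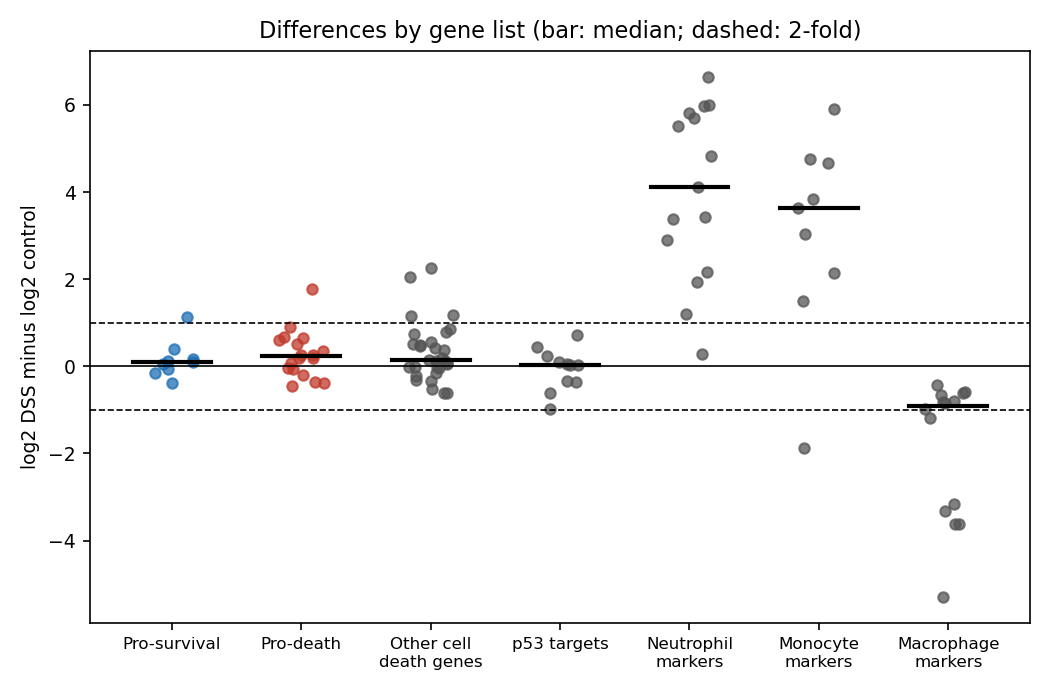
Difference between the DSS and the control array (log2) of each unit past the signal rule, by gene list, with the list's median as a bar and 2-fold as dashed lines. Pro-survival and pro-death regulators, with medians of 0.11 and 0.23, centre near 0, while on the same arrays 14 of the 15 neutrophil markers shown and 8 of the 9 monocyte units lie at or above 2-fold and all 14 resident macrophage markers lie below 0; 9 of those 15 neutrophil markers were under the median in control.

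The signs of the small differences depended on the scaling of the arrays. For 8 of 31 units the sign turned under at least 1 other setting, namely Bcl2a1, Birc3, Mcl1, Casp2, Bmf, Cflar, Bok and Tradd, and no direction is given for them. The 7 units with differences of at least 0.51, from Apaf1 to Mlkl, were positive under every setting tried. Hrk, Bcl2, Fadd and Bbc3, the 4 lowest, were negative under every setting tried, and none of them was past 1.5-fold. Median centring raised all differences by a constant, and the floor lay under every member signal. A positive sign could thus turn only under loess centring or, for units with several probe sets, with their mean. Signs kept under every setting, here and above, are therefore no measure of robustness.

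**Figure D5:**
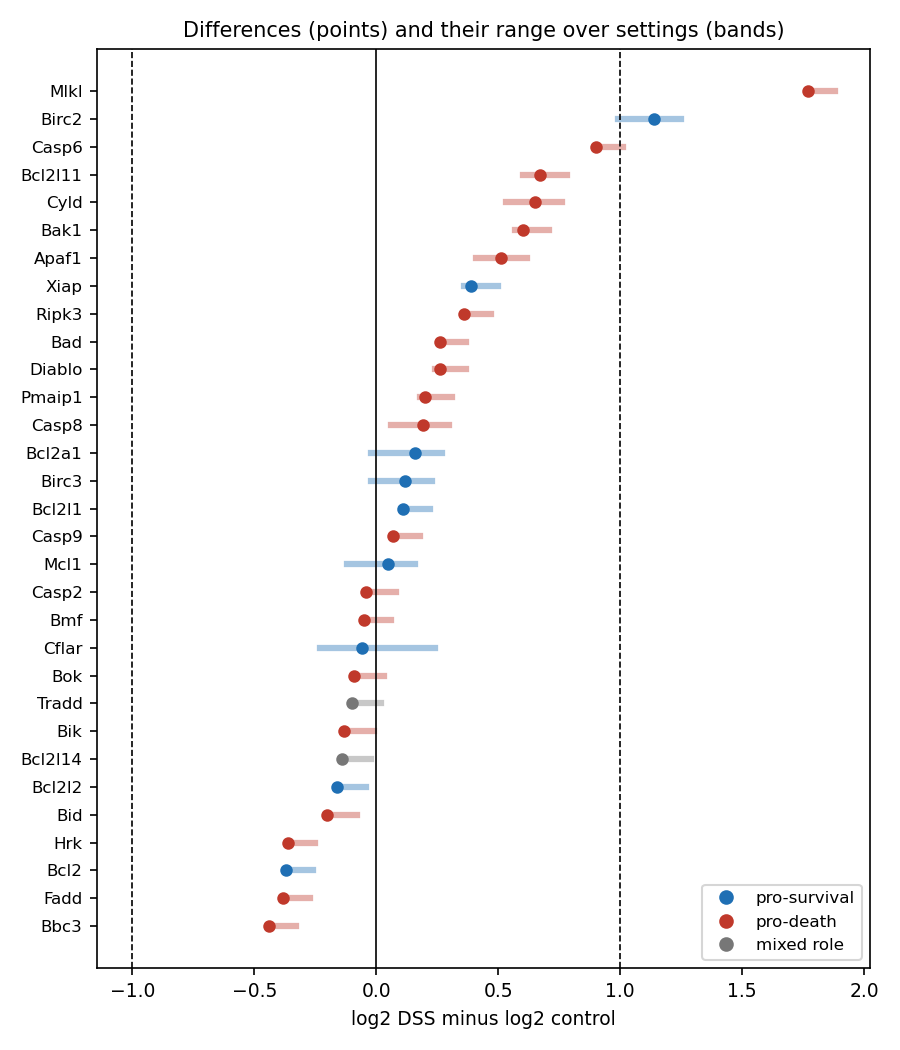
Difference between the DSS and the control array (log2) of 31 units of the regulators (points) and its range over the alternative scalings, probe set choices and floor (bands), coloured by class, with 2-fold as dashed lines. Mlkl stays beyond 2-fold throughout, the band of Birc2 runs from 0.99 to 1.25 and that of Casp6 from 0.90 to 1.01, and 8 bands cross 0.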

How the data were processed

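The values of both arrays are log2 signals of 35556 probe sets, as deposited by the authors. The submitters' processing notes name RMA. Neither its settings nor a genome build is given in the sources used here. Its quantile step, where used, hides a global shift between arrays, and RMA compresses differences of dim probe sets. Values were used as deposited. The array medians rest on 28939 probe sets (those with identifiers from the lowest listed in the annotation upwards). Probe sets took their symbols from the platform annotation (21789 with 1 symbol, 1621 with several, 12146 with none listed). Where a unit had several probe sets, the brightest by mean signal was used. The table has no detection calls, and the number of arrays limits the precision. The members, lists and classes were chosen with earlier results of these data known. All members with a value are named. Of the other cell death genes and the p53 targets, the 4 past the signal rule furthest in each direction are named. Of each marker list, the 2 past that rule with the largest differences are named. Alternatives were median centring, loess centring (span 0.4), the mean of a unit's probe sets, only probe sets with 1 symbol, a signal rule on both arrays or none, a floor at the 25th percentile (4.46), and sizes of 1.5-fold and 3-fold. The steps were tested on simulated data. Software was Python 3.11.15, statsmodels 0.14.6 for the loess fit, pandas 2.3.3 and numpy 2.4.6 for tables, and matplotlib 3.10.9.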

Additional observations from a re-analysis of the deposited data

How the results depend on the processing

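The 2 members at least 2-fold higher became 1 with the mean of probe sets (Mlkl, with Birc2 at 0.99), 6 at 1.5-fold and 1 at 3-fold, and were 3 under median centring, which added Casp6 at 1.01. No member was at least 2-fold lower under any setting. Median centring shifted all differences by a constant, with the median of all units at 0.08 in place of -0.03. The pro-survival median was then 0.22 and the pro-death median 0.34. This centring used the medians of probe sets with a listed symbol, not of the 28939 behind the array medians. That Casp6 passed 2-fold rests on this choice. Loess centring took the pro-survival median to -0.02. The other settings, including the mean in place of the median, the regrouping of mixed-role genes, leaving out Bcl2a1 or leaving out Casp8 and Cyld, moved the pro-survival median within 0.08 to 0.15 and the pro-death median within 0.20 to 0.28. Leaving out Mlkl or Birc2 was chosen after seeing the data. Of 154 recomputed differences of members, 153 moved by less than the SD of 0.28 between probe sets of a gene, and that of Cflar moved to 0.24 with the mean of its probe sets. This count is no measure of robustness, because most of these differences could not move. The floor lay under every member signal, and using only probe sets with 1 symbol changed no member that kept a value. The mean of probe sets could alter only the 3 units with several probe sets. Only loess centring could move each unit by its own amount. Signals of Bok, Bik, Bbc3 in DSS and of members near the array medians cannot be told from background. No paired analysis was possible because each group has 1 array.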
